A study of Mus musculus with 6 samples.

Results

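Signals of 6 genes for glutamate receptors and the proteins that hold them at the synapse were averaged over all probe sets of each gene. By this mean, *Shisa6* and *Homer1* were higher on all 3 knockout arrays than on any control array, as were 11.4% of all genes. *Gria1*, *Grik2*, *Grin2c* and *Dlg4* differed between the groups by 0.07 log2 units or less. None of the 6 passed the test over all genes. The 6 genes were taken by name from the platform's annotation, as every probe set whose only annotated symbol is one of them, which gave 106 of the 58919 probe sets tested and 6 of 5018 genes. A probe set is a small group of probes against 1 stretch of a transcript, often part of an exon, so each gene was measured several times on the same array: *Gria1* at 17 probe sets, *Grik2* at 23, *Grin2c* at 17, *Shisa6* at 6, *Dlg4* at 24 and *Homer1* at 19.

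Glutamate is the main excitatory transmitter of the brain. AMPA receptors carry the fast current, kainate receptors act before and after the synapse, and NMDA receptors admit calcium when transmitter and depolarisation coincide. Auxiliary subunits such as SHISA6 set how AMPA receptors gate and where they stay, and scaffolds of the postsynaptic density, PSD-95 and HOMER1 among them, link the receptors to each other and to signalling enzymes. Synapses near amyloid plaques are known to lose receptors and spines.

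The 6 arrays were hybridised with total RNA of mouse brain, 3 labelled control, of genotype APPPS1-FVB, and 3 labelled knockout, of genotype APPPS1-FVBxABCC1. Both groups therefore carry the APPPS1 transgenes, mutant human APP and presenilin 1 under the *Thy1* promoter, which drives them in neurons, on the FVB strain background, so there is no plaque-free group. The knockout group, so called in the sample titles, differs by a cross for *Abcc1*, which encodes a transporter that exports glutathione conjugates. The labels give neither sex nor age, brain region or batch, and they do not state that each array is its own animal, so the p-values here reflect the spread among 6 samples, which may be technical. *Abcc1* was not analysed here and could not serve to check the labels.

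Values are log2 signals, on which 1 unit is a doubling. The 6 arrays had medians of 7.04 to 7.09 over the tested probe sets, and the array's control features, taken as a guide to background, had medians of 4.09 to 4.29, highest in the 3 knockout arrays. Neuronal markers were bright, with a mean log2 signal over *Syt1*, *Map2* and *Scg2* of 11.42 to 11.46 in controls and 11.37 to 11.43 in knockouts. The arrays were not alike in a cerebellar marker: *Gabra6*, a GABA receptor subunit of cerebellar granule cells, had log2 signals of 4.97, 4.85 and 8.26 in control 1, control 2 and control 3 and of 4.44, 7.07 and 4.70 in knockout 1, knockout 2 and knockout 3. Control 3 and knockout 2 stood apart from the rest in this gene, but the other measured cerebellar markers did not all go with it. At brightest probe sets *Fat2* was lowest in these arrays, at 7.13 and 7.08 against 7.36 to 7.62 in the others. This is 1 of 24 probe sets of *Fat2*. Its log2 difference between the groups was 0.00 (SE 0.18) there and -0.21 (SE 0.22) over all of them. *Etv1* was slightly highest in control 3 and knockout 2, at 11.11 and 11.25 against 10.98 to 11.10. *En1* was at 5.98 and 5.89 against 5.74 to 6.14. Whether these arrays differ in cerebellar tissue was not tested. Results without control 3 and knockout 2 are given where they matter. Across bulk tissue, fewer cells of a type and less RNA per cell cannot be told apart.

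The comparison asked whether transcripts of these synaptic genes differ in amyloid mice without *Abcc1*. Among all 58919 probe sets 3 passed at a limma adjusted p below 0.05, a background of 0.00509%, and none of them belongs to these genes. Of the 106 probe sets of the 6 genes 0 passed, with adjusted p between 0.522 and 1. At a raw limma p below 0.05 there were 18 higher, against a background of 4.75% of all tested probe sets, and 1 lower, against 2.94%. The 18 were unevenly spread: 11 belong to *Homer1*, 4 to *Shisa6*, 2 to *Grin2c* and 1 to *Grik2*, and *Gria1* and *Dlg4* had 0. Probe sets of the same gene share the same arrays, and the genes were chosen with earlier results of these data known. The counts are therefore a description. The *Homer1* count fell whichever array was left out, and such fits also have fewer arrays to test with. It was 5 without control 1, 8 without control 2, 6 without control 3 and 7 without knockout 1. It was 4 without knockout 2, 7 without knockout 3 and 3 without both control 3 and knockout 2. That of *Shisa6* was 2 without control 1, 3 without knockout 3 and 4 without any other single array. Scaling also lowered both counts with all 6 arrays kept. For *Homer1* the count was 8 after quantile normalization or centring on the 75th percentile and 9 after median centring. For *Shisa6* it was 3 after each.

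**Figure D1:**
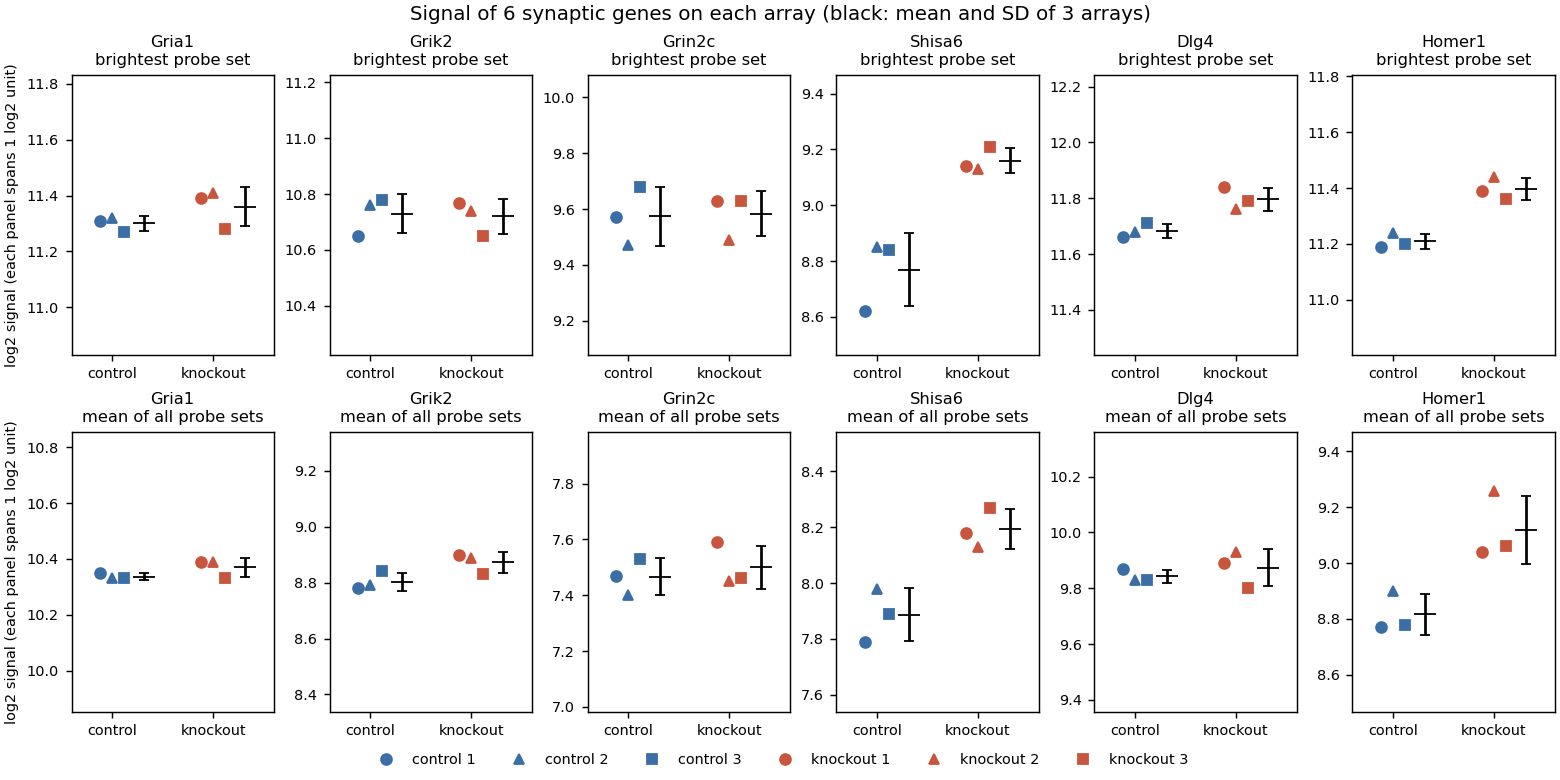
Log2 signal of the 6 genes on each of the 6 arrays, at the brightest probe set (upper row) and as the mean of all probe sets (lower row); symbols mark the array number, blue the controls and red the knockouts, and black bars the mean and SD of 3 arrays. In *Shisa6* and *Homer1* the groups are apart in both rows, in *Dlg4* only at the brightest probe set (11.66 to 11.71 against 11.76 to 11.84), and in *Gria1*, *Grik2* and *Grin2c* they overlap at the brightest probe set.

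*Gria1* encodes GluA1, the AMPA receptor subunit that is inserted into synapses during potentiation. Its mean log2 signal over 17 probe sets was 10.35, 10.33 and 10.33 in the controls and 10.39, 10.39 and 10.33 in the knockouts. The groups met at the value of knockout 3, and the log2 difference was 0.03 (95% confidence interval -0.07 to 0.14, limma adjusted p = 0.772). At the brightest probe set the controls averaged 11.30 ± 0.03 (SD, n = 3) and the knockouts 11.36 ± 0.07 (SD, n = 3), which differ by 0.06. *Gria1* was also the most even of the 6 along its length, with all differences between -0.08 and 0.13 and 16 of 17 within 0.1 of 0. Of its probe sets 11 were higher, 5 lower and 1 equal, where 52% of all tested probe sets were higher. At none of them did the groups separate.

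*Grik2* encodes GluK2, a pore-forming kainate receptor subunit. Its brightest probe set read 10.65, 10.76 and 10.78 in the controls and 10.77, 10.74 and 10.65 in the knockouts, which is the same range in both groups. The log2 difference there was -0.01, with a 95% confidence interval of -0.21 to 0.19, and over the mean of 23 probe sets it was 0.07 (95% confidence interval -0.04 to 0.18, limma adjusted p = 0.537). Unlike *Gria1*, the gene was uneven. Its 11 probe sets with a log2 signal of 9 or more lay between -0.02 and 0.14, and the 12 dimmer ones between -0.28 and 0.49. In the order of array IDs, probe sets 9 to 14 include those with the largest positive values. The twelfth, 10369011, had log2 signals of 7.90, 7.80 and 7.99 in the controls and 8.35, 8.31 and 8.34 in the knockouts, so the groups did not overlap, as in 7.94% of all tested probe sets in this direction. Its log2 difference of 0.44 (SE 0.08) had the smallest raw p of the gene, 0.00172, and a limma adjusted p of 0.522. Probe set 14 was dim, at 3.44 ± 0.17 (SD, n = 3) in controls, and the groups met there at a log2 difference of 0.49 (SE 0.22). The next in order, 10369014, is the brightest of the gene, at 10.73 ± 0.07 (SD, n = 3) in controls, and the one at -0.01. One further probe set carries an older symbol of *Grik2*, C130030K03Rik, and was kept out by the rule; its log2 difference was 0.09.

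*Grin2c* encodes GluN2C, the NMDA receptor subunit best known from cerebellar granule cells and also made by some other neurons and by astrocytes. At its brightest probe set the controls read 9.57, 9.47 and 9.68 and the knockouts 9.63, 9.49 and 9.63. The groups overlapped entirely, with a log2 difference of 0.01 and a 95% confidence interval of -0.22 to 0.24, which turned to -0.02 after quantile normalization. The mean over 17 probe sets differed by 0.03 (95% confidence interval -0.11 to 0.18, limma adjusted p = 0.836). Single probe sets went both ways, from -0.50 to 0.54. At probe set 10392875 the controls read 5.13, 5.10 and 5.37 and the knockouts 5.60, 5.60 and 6.03; at 10392878 the controls read 6.32, 6.04 and 6.40 and the knockouts 5.90, 5.92 and 5.92. At both probe sets, which were dim, the groups were apart, but in opposite directions; knockouts below all controls made up 5.52% of all tested probe sets. *Grin2c* did not follow *Gabra6* from array to array: control 3 and knockout 2, the arrays with the most *Gabra6* signal, gave the highest and the second lowest *Grin2c* value at its brightest probe set. Without both arrays the log2 difference was 0.11 at the brightest probe set and 0.09 over all probe sets, with limma adjusted p of 0.849 and 0.682.

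*Shisa6* encodes an auxiliary subunit that binds AMPA receptors, slows their desensitisation and holds them at the postsynaptic density. At its brightest probe set the log2 signals were 8.62, 8.85 and 8.84 in the controls and 9.14, 9.13 and 9.21 in the knockouts. Every knockout value lay above every control value, which held for 6.2% of genes at their brightest probe sets. Averaged over its 6 probe sets, the controls read 7.79, 7.98 and 7.89 and the knockouts 8.18, 8.13 and 8.27, again apart, as were 11.4% of all genes in this direction. The log2 difference of the mean was 0.31 (SE 0.06, 95% confidence interval 0.16 to 0.46), a 1.24-fold higher signal, with a raw p of 0.00154 and a limma adjusted p of 0.215. Of 5018 genes 29 had a larger positive difference by this measure. *Shisa6* was higher at all 6 of its probe sets, from 0.15 to 0.44 with a median of 0.34, as were 3.64% of the genes with at least 6 probe sets at all of theirs. At 4 of the 6 the groups did not overlap, as at 7.94% of all tested probe sets in this direction. The smallest difference was at the third probe set, where control 2 read 8.02, above all 3 knockouts. An unnamed probe set among those of *Shisa6* by ID, 10387105, showed a log2 difference of 0.02 at a signal of 8.02 in controls, so not every probe set in that stretch shared the shift. Without control 3 and knockout 2 the mean difference was 0.34.

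**Figure D2:**
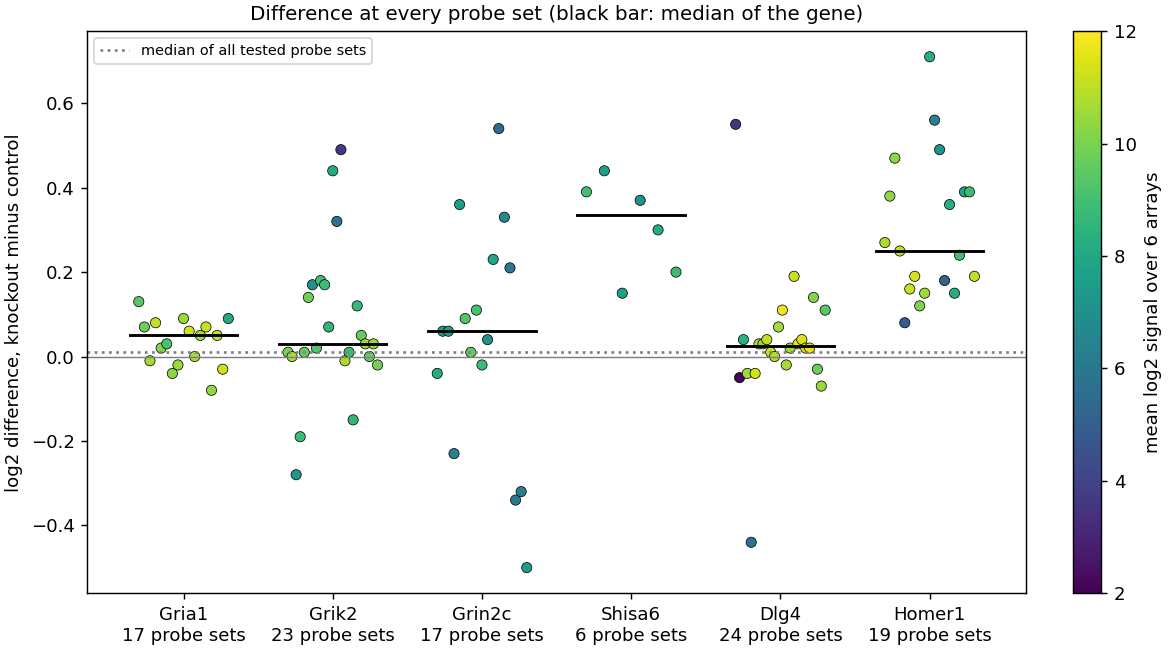
Log2 difference, knockout minus control, at each of the 106 probe sets of the 6 genes, in the order of array IDs within a gene and coloured by the mean log2 signal; black bars are medians and the dotted line is the median of all tested probe sets, 0.01. All points of *Shisa6* (0.15 to 0.44) and *Homer1* (0.08 to 0.71) lie above 0, bright points of *Gria1* and *Dlg4* lie near 0, and the dim points of *Grik2*, *Grin2c* and *Dlg4* scatter to both sides.

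*Dlg4* encodes PSD-95, the most abundant scaffold of the excitatory synapse, whose PDZ domains bind NMDA receptor tails and AMPA receptor auxiliary subunits. Its brightest probe set read 11.66, 11.68 and 11.71 in the controls and 11.84, 11.76 and 11.79 in the knockouts. The groups were apart, by a small margin, with a log2 difference of 0.11 (95% confidence interval -0.06 to 0.29, limma adjusted p = 0.736). This was the 1 probe set of 24 at which the knockouts lay above all controls, as they did at 7.94% of all tested probe sets. The second brightest gave 0.02, and the mean over all 24 gave 0.03 (95% confidence interval -0.09 to 0.15, limma adjusted p = 0.819), with controls at 9.87, 9.83 and 9.83 and knockouts at 9.89, 9.93 and 9.80. As deposited, 17 of 24 probe sets were higher, and 10 were after quantile normalization, while the gene mean went from 0.03 to 0.01. Its 20 probe sets with a log2 signal of 9 or more lay between -0.07 and 0.19. The extremes of -0.44 and 0.55 came from the 4 dimmer ones, 2 of which were below the control features.

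*Homer1* encodes a scaffold that ties metabotropic glutamate receptors to SHANK proteins and to calcium stores. Neurons also make a short form, HOMER1A, on strong activity, which lacks the coiled coil and breaks these links; the files do not say which probe sets read the short or the long transcripts. Averaged over its 19 probe sets, the log2 signals were 8.77, 8.90 and 8.78 in the controls and 9.04, 9.26 and 9.06 in the knockouts. All knockouts lay above all controls, with knockout 2 the highest. The log2 difference was 0.30 (SE 0.07, 95% confidence interval 0.13 to 0.47), a 1.23-fold higher signal, with a raw p of 0.00356 and a limma adjusted p of 0.215. Of 5018 genes 33 had a larger positive difference. Without knockout 2 it was 0.23, and without control 3 and knockout 2 it was 0.21.

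*Homer1* was higher at all 19 probe sets, from 0.08 to 0.71 with a median of 0.25. Of the 1207 genes with at least 15 probe sets 2.65% were higher at all of theirs. With all 6 arrays as deposited 1.41% had 11 or more higher at a raw limma p below 0.05, as *Homer1* did. With each array left out in turn *Homer1* had 4 to 8, and the share of genes was not computed for those smaller fits. At 13 of its 19 probe sets the groups did not overlap, as at 7.94% of all tested probe sets in this direction. The brightest, 10406633, read 11.19, 11.24 and 11.20 in the controls and 11.39, 11.44 and 11.36 in the knockouts, which differ by 0.19 on the log2 scale (SE 0.07, adjusted p from limma 0.636), among the smaller values of the gene. The largest was at 10406636, the tenth in ID order, with 7.82, 8.15 and 7.64 in the controls and 8.17, 8.79 and 8.78 in the knockouts. Knockout 1 stood only just above control 2 there, and the groups differed by 0.71 on the log2 scale (SE 0.22, adjusted p from limma 0.581), or 1.64-fold. The eleventh and twelfth followed with 0.56 and 0.49. Probe sets 10 to 18 all had mean signals below 9, while those before them, the fifth aside, were brighter. The 9 probe sets with a log2 signal of 9 or more had a median difference of 0.19, and the 10 dimmer ones 0.38. Some bright probe sets had differences as large as the dimmer ones. The third, 10406629, was at 0.47 (SE 0.10), with controls at 10.06 ± 0.07 (SD, n = 3) and knockouts at 10.46, 10.69 and 10.44. The second, 10406628, was at 0.38 (SE 0.11). Whether the 2 classes differ was not tested.

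**Figure D3:**
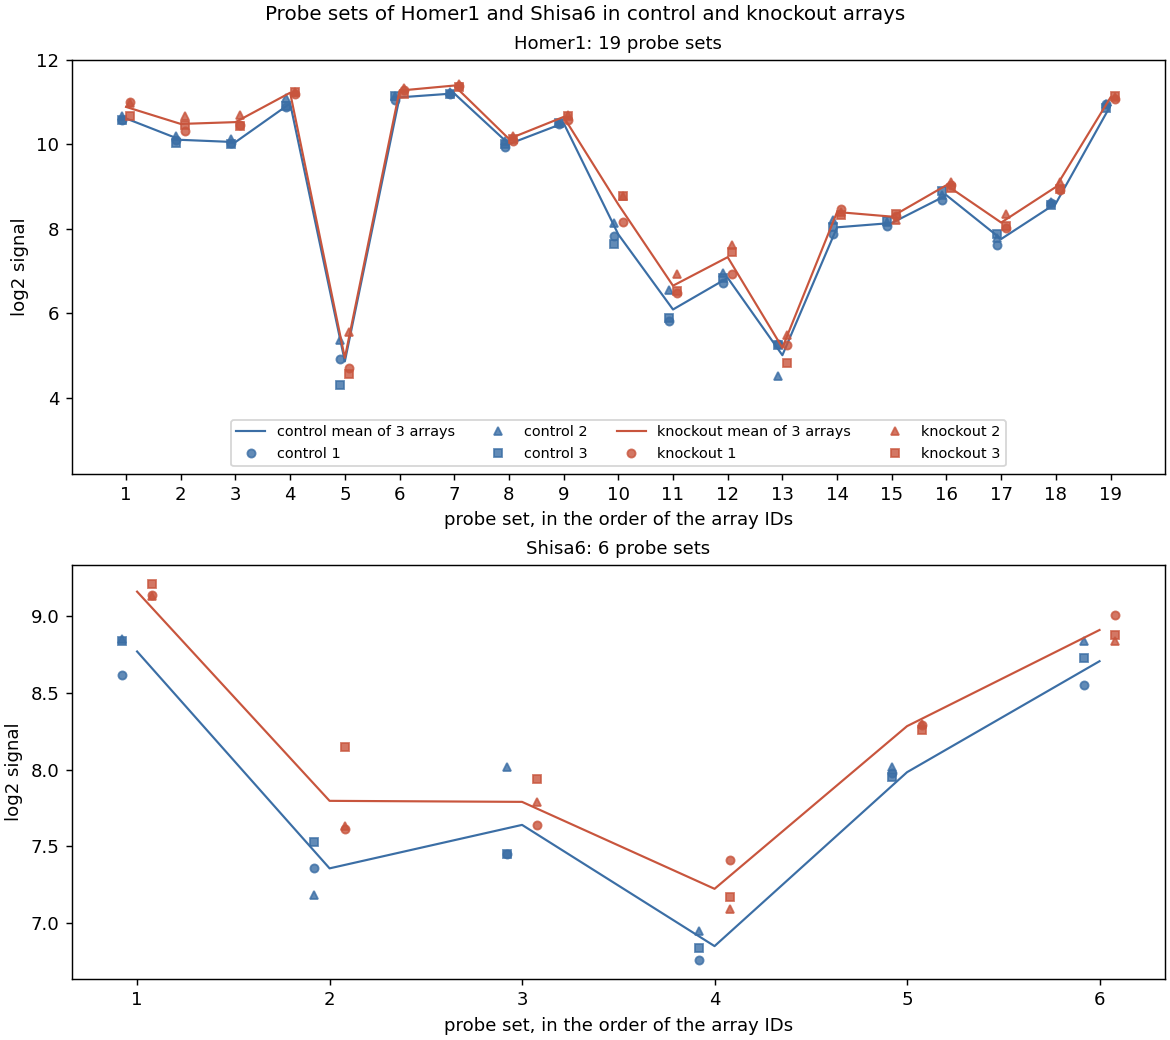
Log2 signal at each probe set of *Homer1* (upper panel) and *Shisa6* (lower panel) in the order of array IDs; points are single arrays, symbols their number, and lines the means of 3 control (blue) and 3 knockout (red) arrays. The red line is above the blue one at every probe set of both genes, most at the tenth of *Homer1*, where it is 0.71 higher.

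None of the 20 genes nearest to *Homer1* or to *Shisa6* had as large a positive difference. Among the 20 measured neighbours of *Homer1* on chromosome 13, 10 to each side, 10 had a higher gene mean, with differences from -0.26 to 0.12 (*Mtx3*) and a median of -0.01, against 0.30 for *Homer1*. Among the 20 neighbours of *Shisa6* on chromosome 11, 10 were higher, with differences from -0.20 to 0.18 (*Zkscan6*) and a median of 0.00, against 0.31. The neighbours of the other 4 genes had medians from -0.03 to 0.00.

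RefSeq's table of promoter windows (GRCm38.p6), read here for the 250 bases before each transcript start, holds 7 windows of 4 of the 6 genes, *Grik2*, *Grin2c*, *Dlg4* and *Homer1*. The first of 2 *Homer1* windows is shown because this gene was higher at every probe set and is a known target of activity-dependent transcription, and those of *Grin2c* and *Grik2*, for which the groups overlapped, stand beside it. Capitals mark 2 motifs searched on both strands, TGACGT, the core of the cyclic AMP response element, and GGGCGG, the GC box; the 2 do not overlap here, and a full palindromic element would count as 2 matches of the first. The *Homer1* window is at chr13:93303507-93303756, plus strand, that of *Grin2c* at chr11:115267244-115267493, minus strand, and that of *Grik2* at chr10:49788755-49789004, minus strand.
Homer1: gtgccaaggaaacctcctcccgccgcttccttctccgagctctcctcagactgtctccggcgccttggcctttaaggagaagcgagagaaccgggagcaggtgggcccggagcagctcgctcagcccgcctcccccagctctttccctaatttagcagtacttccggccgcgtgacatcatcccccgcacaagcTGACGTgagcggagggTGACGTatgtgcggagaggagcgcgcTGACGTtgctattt
Grin2c: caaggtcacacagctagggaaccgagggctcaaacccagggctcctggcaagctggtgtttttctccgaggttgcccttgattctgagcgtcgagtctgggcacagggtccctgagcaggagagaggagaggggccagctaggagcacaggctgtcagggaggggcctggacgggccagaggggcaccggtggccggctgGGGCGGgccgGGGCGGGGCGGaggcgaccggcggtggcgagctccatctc
Grik2: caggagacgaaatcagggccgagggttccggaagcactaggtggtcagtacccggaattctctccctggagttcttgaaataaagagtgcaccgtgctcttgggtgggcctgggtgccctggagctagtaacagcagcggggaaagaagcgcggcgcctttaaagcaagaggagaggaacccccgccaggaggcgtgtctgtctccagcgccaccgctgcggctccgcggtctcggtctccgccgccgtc
The *Homer1* window holds 3 matches of TGACGT, beginning 56, 40 and 14 bases before the start, and 0 of GGGCGG. At least 1 match of TGACGT is found in 6.47% of all 32851 windows of this length and 3 or more in 0.152%. The motif contains the pair CG, of which the *Homer1* window has 21 against a median of 6 over all windows. As many or more are found in 16.3% of windows, and the share of matches among those was not computed. The *Grin2c* window holds 0 of TGACGT and 3 of GGGCGG, a number reached by 8.47% of windows, and that of *Grik2* holds neither. The 3 windows of *Dlg4* hold 0 of TGACGT, and the third of them 1 of GGGCGG. The second *Homer1* window, of an inner start, holds neither motif. A match is a run of letters and not a measured site, and the arrays do not bear on binding.

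Beyond the 6, the wider glutamate synapse was followed in lists of 99 genes. Of these, 27 have probe sets under their own symbol in the deposited values and are called measured, and 21 of them are not among the 6. The rest of the 99, *Gria2* and *Grin1* among them, have none there, so nothing is known of them here. Shares of all genes likewise cover the 5018 genes named in the deposited values and not the whole genome. Of the 27, 0 passed with limma; by gene means 19 were higher and 7 lower, where 48.2% of all genes were higher. Their median difference was 0.03, and that of all genes was -0.00444. At a raw p below 0.05, 6 were higher and 0 lower, against 7.95% and 6.12% of all genes. Without the 6 the counts were 13 higher and 7 lower with a median of 0.02, and 4 higher and 0 lower at a raw limma p below 0.05. After quantile normalization 10 of these 21 were higher and 11 lower with a median of 0.00, where the median of all genes was -0.02. At a raw limma p below 0.05, 2 were then higher and 0 lower. The counts by direction thus did not hold across scalings, while the median of the 21 lay slightly above that of all genes in both.

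The other 2 measured receptor genes were dim. *Grin3b*, a glycine-gated NMDA receptor subunit, and *Grm6*, the metabotropic receptor of retinal ON bipolar cells, read 5.71 ± 0.10 (SD, n = 3) and 5.67 ± 0.31 (SD, n = 3) in controls, with log2 differences of -0.09 in each. Of 8 measured auxiliary and trafficking genes, *Shisa6* among them, 6 were higher and 1 lower by brightest probe set, where 42.5% of all genes were higher; after quantile normalization 5 were higher and 3 lower, and 4 and 4 by gene mean. *Cacng4*, an AMPA receptor auxiliary subunit of the TARP family, read 9.51, 9.63 and 9.65 in the controls and 9.76, 9.76 and 9.60 in the knockouts, a difference of 0.11 there. Its gene mean was above all controls in all knockouts, with a log2 difference of 0.16 (SE 0.06), a raw p of 0.0227 and a limma adjusted p of 0.285. *Cacng5*, another of the family, was at -0.10 and *Cnih3*, a cornichon that promotes AMPA receptor export, at 0.06.

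Among 5 measured scaffolds and 5 measured signalling enzymes, 3 genes besides *Homer1* had raw limma p values below 0.05 by the mean of all probe sets. All of them were higher, as were 7.95% of all genes at this raw p, and 0 passed the adjusted threshold. After quantile normalization the count for enzymes went from 2 to 1, and that for scaffolds, with *Homer1*, stayed at 2. *Akap5*, the anchor that places protein kinase A and calcineurin beside AMPA receptors, read 9.19, 9.27 and 9.12 in the controls and 9.34, 9.56 and 9.44 in the knockouts at its brightest probe set. The groups were apart, with a log2 difference of 0.25 (SE 0.09) there and 0.29 (SE 0.07, limma adjusted p = 0.215) over its 4 probe sets. *Mpp2*, a membrane-associated guanylate kinase that binds PSD-95, read 10.08, 10.12 and 9.90 in the controls and 10.22, 10.47 and 10.27 in the knockouts, also apart, with a log2 difference of 0.29 (SE 0.11) at the brightest probe set and 0.18 (SE 0.06) for the gene mean, and with 13 of 14 probe sets higher. *Prkca*, a protein kinase C, was at 0.20 (SE 0.10) at the brightest and 0.19 (SE 0.08) by mean, with 19 of 21 probe sets higher. At their brightest probe sets *Mpp3* was at -0.05, *Baiap2* at -0.03 (0.03 by gene mean) and *Ppp1r9b*, which encodes the spine protein spinophilin, at 0.04.

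Of 4 measured genes of glutamate supply and uptake, 2 were higher and 2 lower at the brightest probe set. *Slc1a6*, the glutamate transporter of Purkinje cells, read 8.12, 8.15 and 8.30 in the controls and 7.85, 7.97 and 7.90 in the knockouts, which lay below all controls, as did 8.37% of all genes. The log2 difference was -0.28 (SE 0.09, adjusted p from limma 0.586) and that of the gene mean -0.14. The amino acid exchanger gene *Slc1a4* was at -0.13, and *Glul*, the glutamine synthetase of astrocytes, at 0.06.

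**Figure D4:**
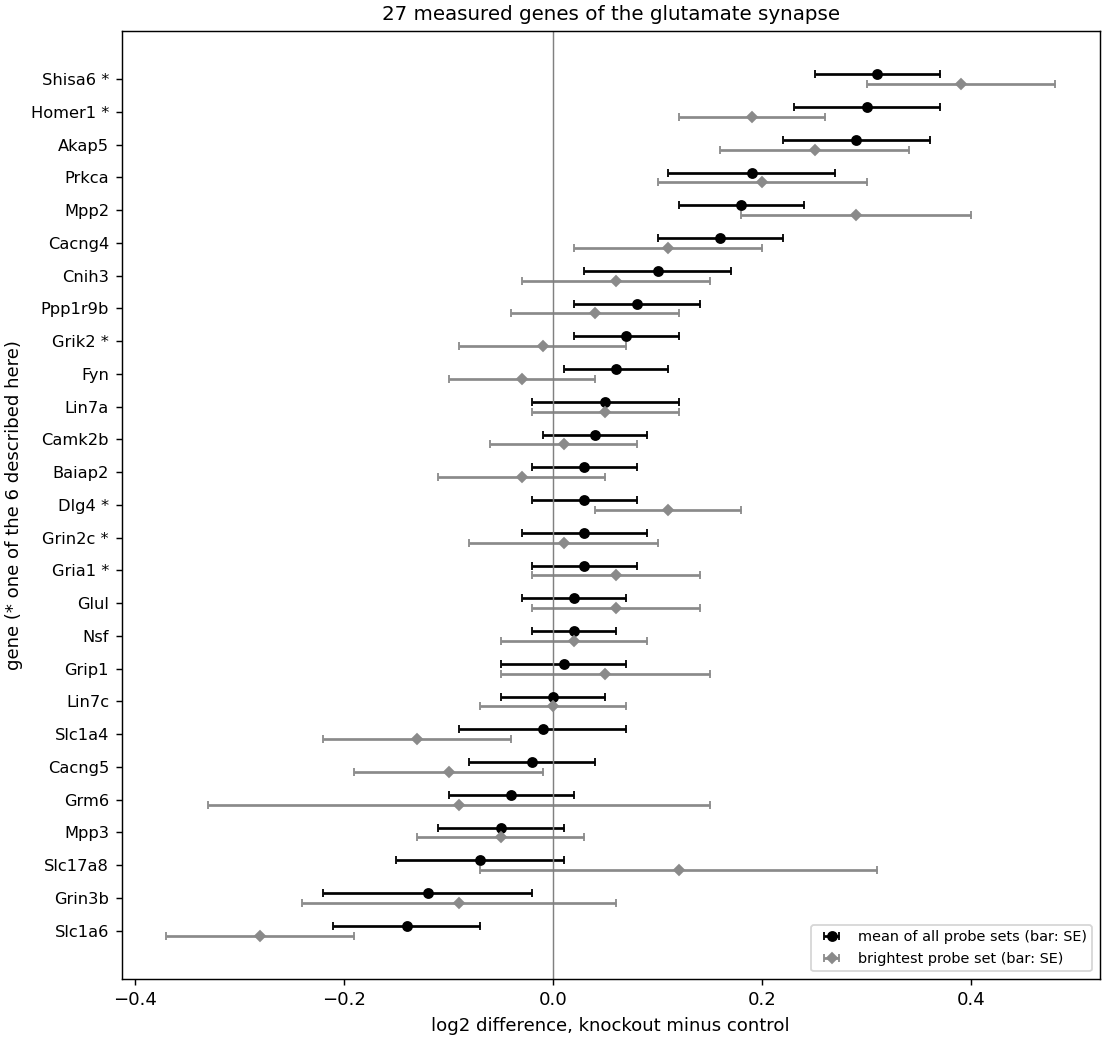
Log2 difference, knockout minus control, for the 27 measured genes of the glutamate synapse, by the mean of all probe sets (black circles) and the brightest probe set (grey diamonds), with bars for the SE; asterisks mark the 6 genes described here. *Shisa6* (0.31) and *Homer1* (0.30) have the highest means, followed by *Akap5* (0.29), and the other 4 of the 6 lie between 0.03 and 0.07.

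No marker of the cell types passed the limma threshold, but the mean level of some lists separated the groups. The mean log2 signal of 5 measured astrocyte markers (9 fixed), *Gfap*, *Gja1*, *S100b*, *Glul* and *Aldoc*, was 11.25 to 11.35 in controls and 11.13 to 11.22 in knockouts, without overlap. Of all genes, 8.37% had all knockouts below all controls at their brightest probe sets, and the share for means of lists was not computed. Within that list *Gfap* (-0.35), *S100b* (-0.21) and *Gja1* (-0.16) were lower and *Glul* (0.06) and *Aldoc* (0.00) were not. For *Gfap* the groups overlapped, with 11.31, 11.15 and 11.74 in the controls and 11.30, 10.54 and 11.30 in the knockouts. The mean of 2 measured microglial markers (10 fixed), *Cd68* and *Ptprc*, was 8.54 to 8.66 in controls. It was 8.48, 7.83 and 8.48 in knockout 1, knockout 2 and knockout 3, so the low end is knockout 2 alone. For *Ptprc* the groups overlapped. The interneuron marker *Vip* had a log2 difference of -0.33 (limma raw p 0.0421, adjusted p = 0.636), with all knockouts below all controls, as in 8.37% of all genes. The oligodendrocyte marker *Cnp* had a log2 difference of -0.04 and the endothelial marker *Pecam1* of 0.09. Of 3 measured neuronal markers (10 fixed), *Syt1* had a log2 difference of 0.03, *Map2* -0.09 and *Scg2* -0.07. Of the 2 forebrain markers *Bcl11a* was at 0.10 and *Neurod2* at -0.02, and of the 2 hippocampal ones *Prox1* was at 0.10 and *Dsp* at 0.25. The part of cell makeup in the differences of *Homer1* and *Shisa6* was not tested.

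Some genes elsewhere ran alongside the 6 from array to array. Likeness was the mean absolute difference over the 6 arrays between brightest probe sets, each centred on its own mean. Closest to *Homer1* were *Mgat5* (0.007) and *Gas7* (0.012), and to *Shisa6* *Myo19* (0.047) and *Ddx46* (0.048). *Dlg4* was closest to *Rbm24* (0.016) and *Smcr8* (0.018), *Gria1* to *Prpf8* (0.009) and *Fbxl20* (0.010), *Grik2* to *Eprs* (0.013) and *Olfr806* (0.018), and *Grin2c* to *Tent4a* (0.020) and *Hoxb7* (0.022). With 6 arrays and 5018 genes such matches are a description of these arrays.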

How the data were processed

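Total RNA of mouse brain was hybridised to 6 1-colour Affymetrix whole-transcript arrays. The authors deposited log2 signals per probe set with 2 decimals; MAS5 is named, with no version, per the submitters' processing notes, and the log2 scale was read from the values, 1.69 to 14.41. The scaling between arrays is not stated in those sources. Since array medians lay within 0.05, under a limit of 0.1, no further normalization was applied. Of the 65535 probe sets in the deposited values, 6616 with IDs below the first named one were taken as control features, from knowledge of the array's ID order, and left out. Genes without a probe set in these values could not be seen, and the background is that of the genes named in them. Symbols came from the platform's annotation, updated through RefSeq synonyms (697 of 5032). Knockout minus control was fitted with limma 3.58.1 (R 4.3.3; lmFit, then eBayes with no trend) and tested on both sides, with p-values adjusted by Benjamini-Hochberg over 58919 probe sets or 5018 genes and a threshold of 0.05; the fit was tested on simulated data. A gene was represented by its brightest probe set over the 6 arrays and by the mean of all its probe sets. Only 3 arrays a group limit the precision. The genes named are the 6, up to 3 others with the smallest raw p in each pathway list, and 2 most alike. Members and lists were chosen with earlier results of these data known. Alternatives covered scaling, filter, variance model, weights, pairing, left-out arrays and the choice of probe sets. Deviations of same-numbered arrays had correlations of 0.04, -0.07 and -0.1. The labels do not say whether these arrays are paired, and the main fit took them as unpaired.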

Additional observations from a re-analysis of the deposited data

How the results depend on the processing

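The count of 3 probe sets past the limma threshold was 21 with trend and robust moderation, 7 with array weights or median centring, 6 with quantile normalization or centring on the 75th percentile, 19 without the dimmest 1 in 3 probe sets, 7 at adjusted p below 0.1, 0 to 4 without 1 array and 0 without control 3 and knockout 2; none of these fits called a probe set of the 6 genes. With the replicate number as a block the count was 0 and the log2 differences stayed at 0.31 for *Shisa6* and 0.30 for *Homer1* (limma adjusted p = 0.310 for each mean). The labels do not say whether same-numbered arrays are paired, and 1 of 6 arrays correlated best with its own number. *Shisa6* and *Homer1* stayed higher in the knockout under all alternatives run, with means from 0.25 to 0.36 and from 0.21 to 0.35 and smallest adjusted p of 0.0879 and 0.0921, with trend and robust moderation; *Shisa6* was higher at 6 of 6 probe sets in each fit and *Homer1* at 18 or 19 of 19, or 17 where the dimmest 1 in 3 were left out. Differences near 0 changed sign: *Gria1* to -0.03 at the second brightest probe set, *Grik2* to 0.01 with array weights and from -0.05 to 0.03 without 1 array, *Grin2c* to -0.02 with quantile normalization, -0.01 with median centring, -0.02 with centring on the 75th percentile from -0.04 to 0.06 without 1 array and to 0.11 without control 3 and knockout 2, its mean from -0.01 to 0.07 without 1 array and to 0.09 without those 2, and the mean of *Dlg4* to -0.01 without control 3 and knockout 2. The cause was not tested. Higher probe sets were 10 of 24 in *Dlg4* with quantile normalization, with centring on the 75th percentile and without control 3, and 10 of 23 in *Grik2* with the 75th percentile. Leaving out control 3 and knockout 2, the counts of higher probe sets and the counts of genes past the threshold by mean were added after seeing the data. Probe sets near the control features' signal limit what their differences show.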
